A study of Mus musculus with 192 samples.

Results

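The miR-378 family was followed across small RNA libraries of the mouse cortex, heart and lungs. Its members were chosen by name, as the mature miRNAs mmu-miR-378a-3p, mmu-miR-378a-5p, mmu-miR-378b, mmu-miR-378c and mmu-miR-378d, and these are 5 of the 1960 miRNAs listed in each tissue's table. Both arms of miR-378a are cut from a hairpin that lies within Ppargc1b, a gene for a transcriptional coactivator of mitochondrial biogenesis. In mice, the arms of miR-378a are known to hold back mitochondrial metabolism, with the mediator subunit Med13 and the carnitine acetyltransferase Crat as targets. The 3p arm is abundant in heart and skeletal muscle, where it also acts on the insulin-like growth factor receptor Igf1r, and the 5p arm was shown in human breast cancer cells to target the estrogen-related receptor gamma and the GA-binding protein alpha. miR-378b, miR-378c and miR-378d come from other genes, and the prefix mmu, for mouse, is left out from here on.

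The mature sequences of the members from other genes are shown because they bear on how far the members can be told apart by reads. They were taken from RefSeq (GRCm38.p6), in which 3 of the 5 members were matched, and the capitals mark the seed, bases 2 to 8, through which a miRNA pairs with its targets.
miR-378c: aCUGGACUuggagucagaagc
miR-378d: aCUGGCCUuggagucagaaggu
miR-378b: cUGGACUUggagucagaaga
The 3 seeds differ from each other. Against miR-378c, the sequence of miR-378d has the substitutions A6C and C21G over 21 compared bases, with the base of miR-378c first and positions counted from 1 at the 5′ end, and A6C lies in the seed. miR-378b starts 1 base later, and with its base 1 set against base 2 of miR-378c it differs by A20C over 20 compared bases, here with the base of miR-378b first and the position counted in miR-378b, so that most of its seed is the seed of miR-378c shifted by 1. A run of 14 bases, cuuggagucagaag, is common to all 3. How reads that match several members were counted is not given in the sources used here. The values of all members, miR-378a-3p included, are therefore uncertain to the extent that reads were shared. No mature sequence of miR-378a-3p was matched, so its likeness to the sequences above cannot be shown here.

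The genes of these members lie apart in the mouse genome (positions in NCBIM37, the assembly also named mm9). Mir378b is at chr11:88166275-88166366 on the plus strand, opposite to and within an intron of Msi2. Mir378c is at chr14:47574505-47574603 on the minus strand, opposite to and within an intron of Samd4. Mir378d is at chr10:126147338-126147447 on the minus strand and overlaps no coding gene, the nearest one being Xrcc6bp1 at a distance of 158039 bp. Mature miR-378b is on the 3′ arm of its hairpin, while miR-378c and miR-378d are on the 5′ arm.

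The libraries came from 64 adult male SKH-1 mice, an outbred hairless strain, each of which gave all 3 tissues. Mice received fentanyl citrate in Ringer's solution under the skin at 62 mg/kg (HNLD, the highest dose without deaths, for which the labels use LOEL), 110 mg/kg (LD10) or 135 mg/kg (LD50), or 200 µL of the vehicle alone (sham, labelled as Control). They were euthanized at 0h, which is 40 min after injection, or at 6h, 24h or 7d, and this made 16 groups of 4 mice per tissue. Of the 192 labelled samples 190 were analysed, since 1 sham cortex (24h) and 1 LD50 lung sample (7d) were not analysed here. In the heart table, FP91 is named LD10 while its label says sham at 24h, and the label was followed.

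The deposited values are reads scaled by TMM within each tissue, so that levels were compared within a tissue only, while ratios between members of 1 library do not depend on that scaling. Read totals ran from 1775669 to 8381425 in cortex, from 215163 to 5355085 in heart and from 196853 to 6540900 in lungs, and 0, 5 and 10 libraries of these tissues fell under 0.25 of the tissue's median. Libraries outside the main branch of their tissue's correlation tree, cut at a distance of 0.05, are described as standing apart. These were 3 cortex, 2 heart and 10 lung libraries. Even the most alike libraries of a group differed beyond the noise of sampling, with a chi-square per degree of freedom of at least 14.8, 23.1 and 12.2 in the tissues, so no library was counted as a copy of another. Those miRNAs that reached 10 in 4 or more libraries, 482, 320 and 371 in the 3 tissues, were tested with limma on log2(value + 1), and called describes a Benjamini-Hochberg adjusted p under 0.05. On this scale the change of a low miRNA is understated.

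Several of the libraries that stand apart went against their tissue label, and the family moved with them. The heart library of HNLD mouse FP38 at 6h correlated at 0.993 with the median lung profile and at 0.849 with the median heart profile over 277 miRNAs, and the lung library of the same mouse correlated at 0.963 with heart and at 0.895 with lungs. The labelled heart of FP38 held 4350 of summed signal over the 7 muscle miRNAs on the list (54329 to 161168 in the hearts that do not stand apart) and 9189 over the 5 epithelial miRNAs of the miR-200 family (32.9 to 689 in those hearts). The labelled lungs of FP38 held 160453 and 987 for the same lists, against 2112 to 13817 and 6021 to 9916 in the lungs that do not stand apart, and the skeletal muscle miRNA miR-206-3p was listed at 0 there. The cortex libraries of sham mice FP85 (6h) and FP96 (0h) correlated at 0.991 with the lung profile and at 0.644 and 0.639 with the cortex profile. Their summed signal over the 5 neuronal miRNAs was 678 and 496, against 106149 to 169636 in the cortices that do not stand apart. The heart of sham mouse FP92 at 24h was heart-like (r = 0.960), with 245799 reads, a muscle sum of 92660 and miR-378a-3p at 40191. All libraries were kept under their labels, and fits without those that stand apart are given where they could be made. For the lungs at 24h none could be made, since all 4 sham lungs of that time stand apart.

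miR-378a-3p was the main member of the family in every tissue and was highest in relation to other miRNAs in the heart. Over the libraries that do not stand apart its value ran from 38281 to 69782 in heart (median 50300, n = 62), from 3072 to 12568 in lungs (median 5930, n = 53) and from 2928 to 6172 in cortex (median 3747, n = 60). By level it ranked between 5 and 8 of all miRNAs in heart (median 6), between 16 and 44 in lungs (median 28) and between 38 and 52 in cortex (median 45). The whole family made up 6.48% of the heart library at the median, 0.737% of the lung library and 0.457% of the cortex library. In bulk tissue, fewer cells of a type and less of the RNA per cell cannot be told apart.

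**Figure D1:**
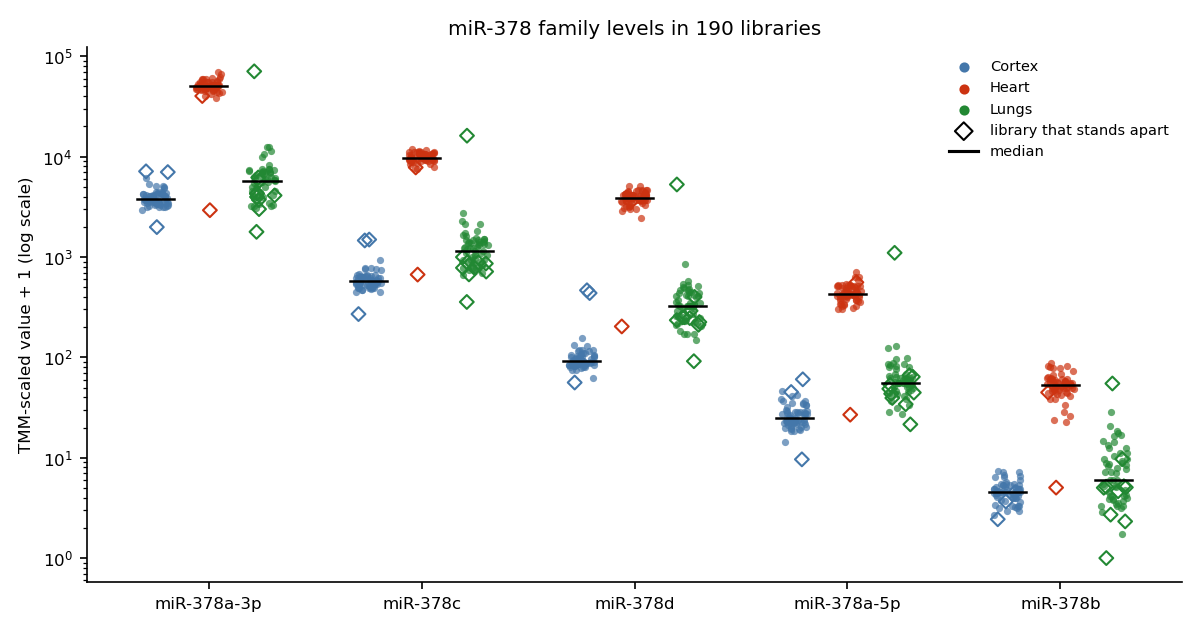
TMM-scaled value + 1 on a log axis for the 5 members in each of the 190 libraries, coloured by tissue, with bars at the median and diamonds for libraries that stand apart. miR-378a-3p leads in every tissue with medians over all libraries of 3747 (cortex), 50150 (heart) and 5773 (lungs), miR-378b is lowest, and 1 heart diamond (FP38) sits at lung levels while 1 lung diamond (FP38) sits at heart levels.

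The other members followed in the same order in each tissue at the median. Over all libraries miR-378c had medians of 571 in cortex, 9773 in heart and 1150 in lungs. miR-378d had medians of 91.1, 3874 and 322. The 5p arm of miR-378a had medians of 23.7, 427 and 54.9. miR-378b was the lowest with 3.56, 51.6 and 4.98, and in cortex, where it ran from 1.44 to 6.35, it did not reach the level set for testing.

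The spread between mice was small in heart and wide in lungs. The coefficient of variation of miR-378a-3p over the libraries that do not stand apart was 11.3% in heart, 15.8% in cortex and 37.0% in lungs. On the log2 scale its SD was 0.16, 0.21 and 0.51, while the counting of reads alone would give 0.0054, 0.011 and 0.011. For miR-378b, which rested on a median of 15.5 reads in cortex, 115 in heart and 19 in lungs, the SD was 0.34, 0.40 and 0.88 against 0.39, 0.18 and 0.38 from counting. The counting figures were computed on reads without the added 1, which narrows the observed spread of low values. Whether the spread of miR-378b in cortex exceeded counting error is therefore not settled by these figures. Its spread in lungs was above counting error.

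Most of the family's signal came from miR-378a-3p, followed by miR-378c. miR-378a-3p made up 84.6% of the family's signal in cortex, 78.0% in heart and 78.2% in lungs at the median. miR-378c made up 12.8%, 15.3% and 16.4%, and miR-378d 2.06%, 5.98% and 4.58%. The 5p arm held 0.538%, 0.661% and 0.798% and miR-378b 0.0795%, 0.0810% and 0.0732%.

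Set against miR-378a-3p within the same library, miR-378c and miR-378d were lower in cortex than in the other tissues. The ratio of miR-378c to miR-378a-3p ran from 0.125 to 0.168 in cortex, from 0.169 to 0.220 in heart and from 0.180 to 0.253 in lungs without the libraries that stand apart. The ratio of miR-378d to miR-378a-3p ran from 0.0176 to 0.0312 in cortex, from 0.0544 to 0.0933 in heart and from 0.0397 to 0.0766 in lungs. For both ratios the range of cortex did not overlap those of heart and lungs, which overlapped each other. These ranges are a description, with no test, and how far reads shared between members enter the ratios is not known. The cortex libraries FP85 and FP96, which have lung-like profiles, had 0.205 and 0.213 for miR-378c and 0.0611 and 0.0663 for miR-378d. These lay outside the cortex ranges and inside those of both heart and lungs.

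The 3p arm of miR-378a was far more abundant than the 5p arm, and their ratio differed between tissues. The median ratio was 158 in cortex, 119 in heart and 96.4 in lungs. As log2((3p + 1)/(5p + 1)) the mean was 7.23 ± 0.39 (SD, n = 63) in cortex, 6.85 ± 0.30 (n = 64) in heart and 6.59 ± 0.40 (n = 63) in lungs. The differences were 0.38 between cortex and heart, 0.64 between cortex and lungs and 0.26 between heart and lungs (two-sided permutation tests with 100000 draws, adjusted p = 1.5e-05, 1.5e-05 and 8e-05 over the 3 pairs, where 1e-05 is the smallest unadjusted p such draws can give). Since the same mice gave all tissues, the signs were also flipped within mouse as a replicate block. This pairing gave 0.37, 0.65 and 0.26, with the same sign in 47 of 63, 55 of 62 and 47 of 63 mice and adjusted p of 1.5e-05, 1.5e-05 and 2e-05. With a pseudocount of 4 in place of 1 the difference between cortex and heart was 0.23 (adjusted p = 0.00017). In sham mice alone the difference between heart and lungs was 0.13 and did not pass (adjusted p = 0.357), while those of cortex against heart and lungs were 0.48 and 0.60.

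**Figure D2:**
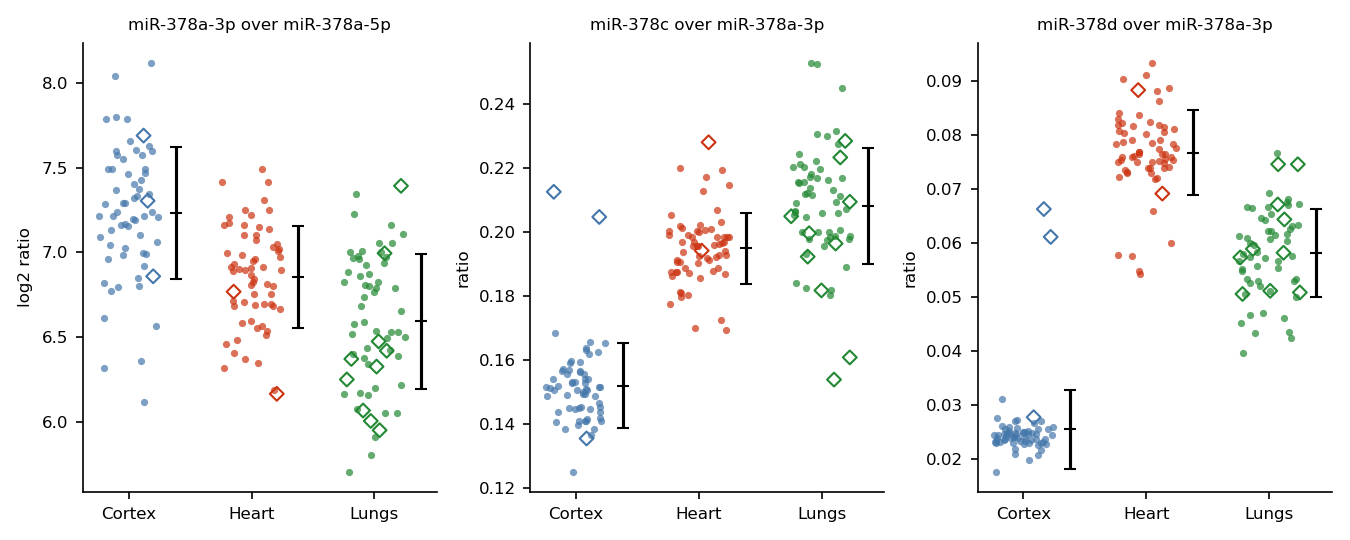
Ratios within a library for cortex, heart and lungs, in 3 panels: log2 of miR-378a-3p over miR-378a-5p, miR-378c over miR-378a-3p and miR-378d over miR-378a-3p, with 1 point per library, diamonds for libraries that stand apart and bars for the mean ± SD. The arm ratio steps down from cortex (7.23) to heart (6.85) to lungs (6.59), and, leaving the diamonds aside, the cortex points of both other ratios lie below those of heart and lungs.

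The arm ratio was then compared between fentanyl and sham mice. In heart at 0h the ratio of the 4 sham hearts was 85.0, 80.1, 119 and 91.5, and log2 of the ratio was 6.53 ± 0.25 (SD, n = 4) in sham against 6.97 ± 0.31 (n = 12) with fentanyl. The difference of 0.43 had an exact permutation p of 0.0236 (two-sided, 1820 arrangements), which did not hold after adjustment over the 12 comparisons of tissue and time (adjusted p = 0.284). In lungs the difference was 0.31 at 24h (exact p = 0.0736), -0.48 at 6h (exact p = 0.101) and -0.29 at 7d (exact p = 0.127). Over all times the differences were -0.04 in cortex, 0.09 in heart and -0.09 in lungs (stratified permutation tests, adjusted p = 0.743, 0.677 and 0.677). Without the libraries that stand apart the differences over all times were -0.08, 0.05 and -0.31 (adjusted p = 0.586, 0.586 and 0.13), where the lungs then lack 24h, and the sign turned for heart at 24h (0.07 to -0.11), lungs at 0h (0.11 to -0.18) and cortex at 0h (0.10 to -0.01). No arm ratio passed against sham with or without these libraries.

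Each fentanyl comparison at a time used the same sham libraries for its 3 doses, and the mean over the doses used them as well, so these comparisons share their controls. In all 3 tissues dose also went with mouse number, as mice FP16 to FP58 hold all 16 HNLD and 15 of the LD10 libraries and no sham library. Dose and number range are therefore not fully separable in cortex and heart either. The members were tested in 24 ways per tissue, namely against sham at each time, over all times, at each dose, at each dose and time, and by F tests for dose, time, their interaction and time among sham mice. The F tests for time and for time among sham mice do not compare fentanyl with sham.

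**Figure D3:**
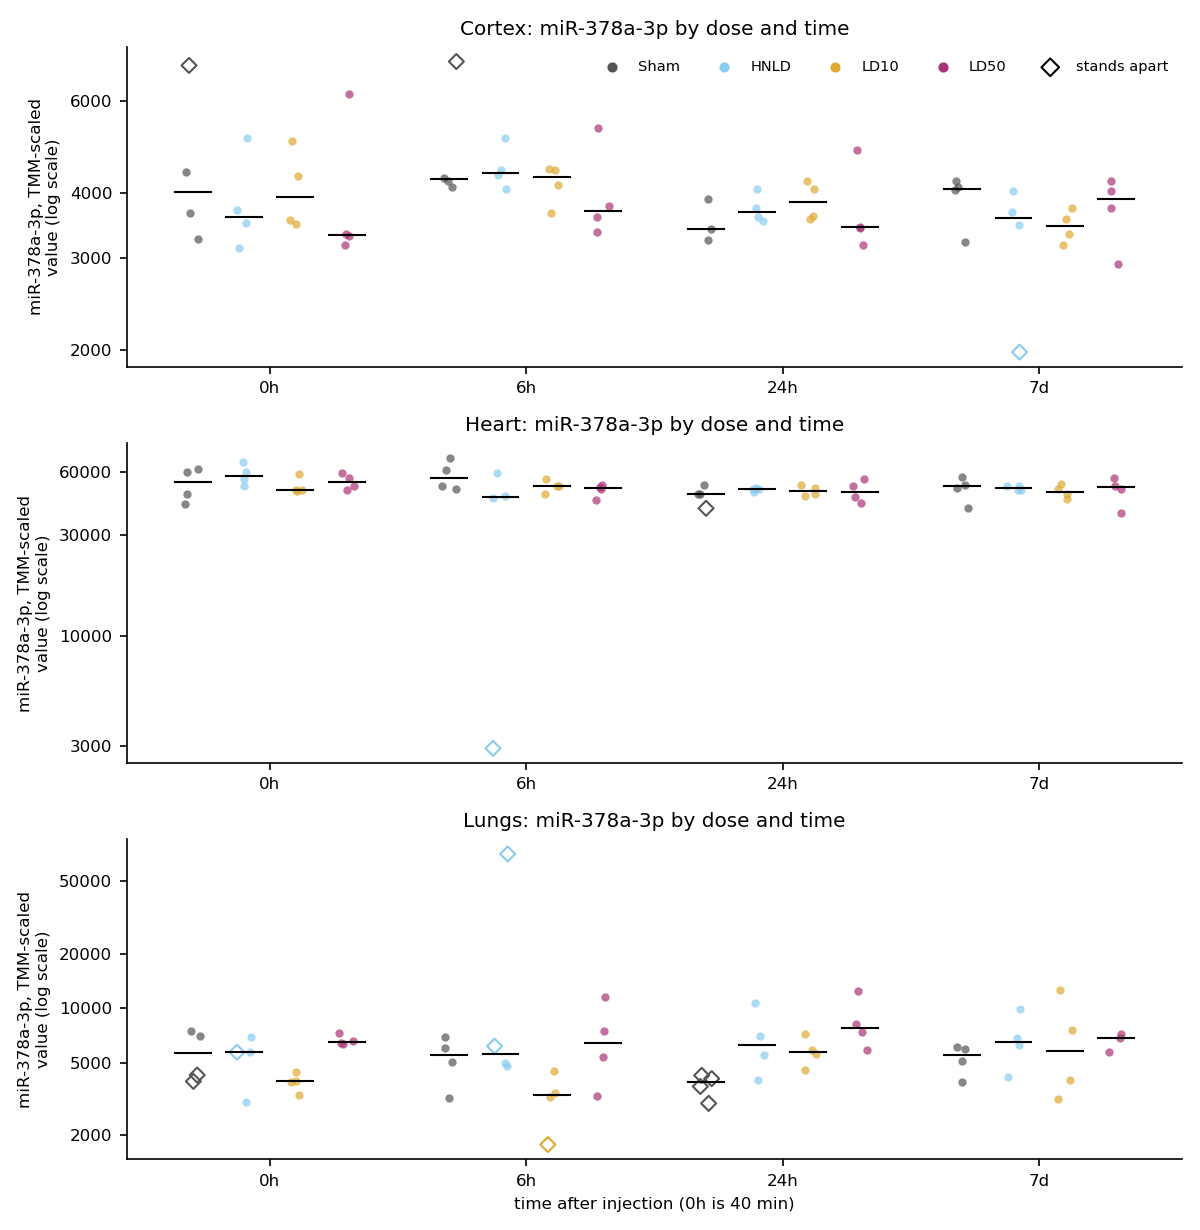
TMM-scaled value of miR-378a-3p on a log axis by dose and time in cortex, heart and lungs, with 1 point per mouse, bars at the group median and diamonds for libraries that stand apart. The groups overlap in cortex and heart apart from the diamonds, and the sham lungs of 24h (3000 to 4278), all of which stand apart, lie at the low end of that time.

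Cortex: No member passed the limma test in any comparison. In sham mice miR-378a-3p was 7015, 3660, 3259 and 4390 at 0h, and 7136, 4113, 4222 and 4277 at 6h, where the first value of each is the lung-like library FP96 or FP85. The fentanyl mice had 3139 to 6172 (median 3531) at 0h and 3368 to 5316 (median 4243) at 6h. The other sham values of both times lay within the fentanyl ranges.

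In cortex miR-378d showed the widest gap of the family between the lung-like libraries and the rest. Its sham values were 465, 94.7, 83.5 and 104 at 0h and 436, 100.4, 102 and 89.9 at 6h. The fentanyl mice had 61.8 to 154 (median 85.1) and 81.6 to 128 (median 97.4). FP96 and FP85 alone lay above the fentanyl mice. The fentanyl effect on miR-378d was -0.60 at 0h (95% confidence interval -1.15 to -0.06, adjusted p = 0.0933 by limma), and without the libraries that stand apart it was -0.03 (-0.35 to 0.29). Of the 96 values of the 4 tested members in cortex 0 were called by limma and 4 had an unadjusted p under 0.05, while edgeR called 9 of 96 and DESeq2 14 of 80. By limma the background of all miRNAs was 0% called at 0h, 2.49% at 7d, 1.66% over all times and 1.04% by dose.

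On the recovered reads, edgeR called miR-378d lower in cortex at 0h (-1.20, adjusted p = 0.00289), at 6h (-1.11, adjusted p = 0.00605) and over all times (-0.59, adjusted p = 0.00614), beside 20.1%, 20.7% and 22.8% of all miRNAs called by edgeR. DESeq2 gave -1.32 and -1.35 at 0h and 6h (adjusted p = 0.00269 and 0.00155), beside 16.4% and 21.9% called. Both fits held FP96 and FP85 among the sham mice. Without the libraries that stand apart the limma effect on miR-378a-3p was 0.06 (-0.24 to 0.35) at 0h, -0.01 (-0.30 to 0.29) at 6h, 0.10 (-0.20 to 0.39) at 24h, -0.10 (-0.36 to 0.17) at 7d and 0.01 (-0.13 to 0.16) over all times. For miR-378c and miR-378d the effects over all times were 0.04 (-0.11 to 0.18) and -0.00 (-0.16 to 0.15), and for the 5p arm 0.09 (-0.12 to 0.29).

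Heart: The heart held the highest share of the family, and its calls rested on the library labelled as the heart of FP38. In the HNLD group at 6h miR-378a-3p was 45781, 2925, 59098 and 45153, where 2925 is FP38, and in the sham group of that time 69782, 51155, 61156 and 49363. miR-378c was 8827, 667, 10706 and 7653 against 11862, 9663, 10986 and 9913. miR-378d was 3292, 202, 4346 and 2454 against 5095, 3731, 3521 and 4150. FP38 was the lowest for each of the 5 members, and the other HNLD values overlapped the sham values.

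By limma the differences between HNLD and sham at 6h were -1.23 (SE 0.37, adjusted p = 0.0258) for miR-378a-3p, -1.17 (SE 0.34, adjusted p = 0.0231) for miR-378c and -1.32 (SE 0.37, adjusted p = 0.0231) for miR-378d. These 3 of 5 members were called where 7.19% of all miRNAs were called, with 4.69% called lower. The 5p arm (-1.03, adjusted p = 0.0882) and miR-378b (-0.93, adjusted p = 0.168) did not pass. Of the 6 tested muscle miRNAs on the list 5 were called lower in the same comparison. Without FP38 the differences were -0.21, -0.24 and -0.32, and 0 of 320 miRNAs were called in the limma fit, while 39 had an unadjusted p under 0.05. With FP38 kept, edgeR and DESeq2 on the recovered reads called 0 of the members in heart, with 0 of 120 and 1 of 100 values at an unadjusted p under 0.05. The calls were also lost when any of the sham libraries FP77, FP78 or FP86 was left out, with differences that stayed between -1.12 and -1.39 (adjusted p from 0.0583 to 0.0804). No other member value of the heart was called, where the background over all times was 0%, so that 3 of 120 values passed and 6 had an unadjusted p under 0.05.

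At the other times the heart groups overlapped for miR-378a-3p. At 0h the fentanyl mice had 48655 to 66295 (median 53228) and the sham mice 59720, 42328, 61744 and 47062. At 24h they had 42767 to 55629 (median 49698) against 51739, 40191, 46759 and 47131, where 40191 is FP92. At 7d they had 38281 to 55791 (median 49520) against 50036, 56825, 51976 and 40502. Sham mice lay on both sides of the fentanyl median at each of these times.

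Without FP38 and FP92 the intervals of the heart were narrow. The fentanyl effect on miR-378a-3p was 0.06 (-0.14 to 0.25) at 0h, -0.20 (-0.40 to -0.00) at 6h, 0.01 (-0.21 to 0.23) at 24h, -0.02 (-0.21 to 0.18) at 7d and -0.04 (-0.14 to 0.06) over all times. Of the 120 values of the members 0 were called by limma and 4 had an unadjusted p under 0.05, and edgeR and DESeq2 were not run without these libraries. The effects on miR-378c and miR-378d over all times were -0.01 (-0.11 to 0.09) and 0.01 (-0.12 to 0.14), and for miR-378b -0.03 (-0.27 to 0.20). At 0h the 5p arm had 703, 529, 520 and 514 in sham mice and 309 to 627 (median 444) in fentanyl mice, with overlap. Its difference there was -0.38 (-0.69 to -0.07, adjusted p = 0.54 by limma), from the same libraries as the arm ratio at 0h.

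**Figure D4:**
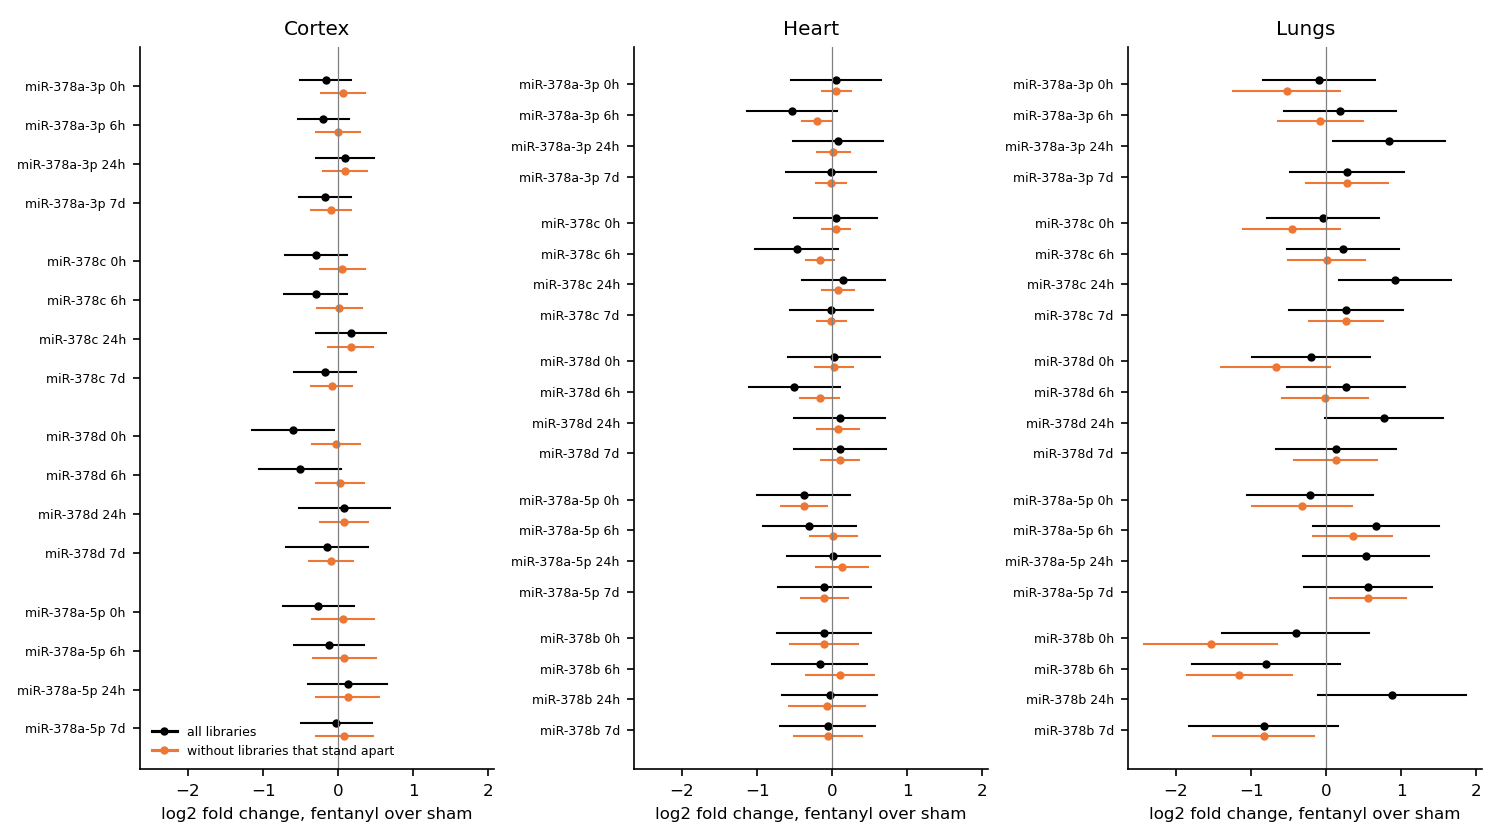
Log2 fold change of fentanyl over sham with its 95% confidence interval for each tested member at each time in cortex, heart and lungs, in black with all libraries and in orange without the libraries that stand apart. The orange intervals are narrower in cortex and heart, and there is none for lungs at 24h because all 4 sham lungs of that time stand apart.

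Lungs: The calls of the family were at 24h, in the F test for dose and, for miR-378b, at LD10 over all times. In lungs 8 of the 120 values of the members passed and 22 had an unadjusted p under 0.05. At 24h miR-378a-3p was 3000, 4106, 4278 and 3717 in sham mice, 10674, 4054, 5571 and 7022 at HNLD, 5930, 5626, 7190 and 4565 at LD10 and 12446, 8176, 7375 and 5876 at LD50. Of the 12 fentanyl values only 4054 at HNLD lay below the highest sham value.

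For miR-378c and miR-378d the groups of 24h did not overlap, and 15.4% of all miRNAs likewise had every fentanyl value above every sham value. miR-378c was 670, 860, 777 and 715 in sham mice and 933 to 2741 (median 1390) with fentanyl. miR-378d was 224, 210, 245 and 249.6 in sham mice and 256 to 842 (median 377) with fentanyl. By limma the fentanyl effect was 0.91 (SE 0.37, adjusted p = 0.0408) for miR-378c, 0.84 (adjusted p = 0.0586) for miR-378a-3p and 0.77 (adjusted p = 0.1) for miR-378d. The 1 member called stood among 46.1% of all miRNAs called in this comparison, with 26.7% called higher, and the median effect over all miRNAs was 0.20. The call of miR-378c was lost when FP56, FP58, FP64 or any of the sham lungs FP91 to FP94 was left out (0.84 to 0.98, adjusted p up to 0.0984).

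At LD50 and 24h, miR-378a-3p rose by 1.12 (SE 0.46, adjusted p = 0.0470), miR-378c by 1.18 (SE 0.46, adjusted p = 0.0389) and miR-378b by 1.93 (SE 0.60, adjusted p = 0.0109) in the limma fit. miR-378d differed by 1.00 and did not pass (adjusted p = 0.095). In this comparison 36.9% of all miRNAs were called, with 20.8% called higher, and the median over all miRNAs was 0.25. miR-378b was 27.3, 15.5, 10.1 and 8.25 at LD50 and 0, 8.71, 4.02 and 3.63 in sham mice. Of these groups only LD50 reached the filter value of 10, so the direction of miR-378b here is tied to the filter. None of these 3 calls held with edgeR or DESeq2 on the recovered reads, with adjusted p of 0.135 and 0.111 for miR-378a-3p (0.97 and 0.96), 0.105 and 0.0817 for miR-378c (1.05 and 1.04) and 0.103 and 0.0719 for miR-378b (1.63 and 1.65). In the sham group of miR-378b the value of 0 is FP91, in which 0 of 662286 reads allows a value of up to 3.97 (3 reads, counting error only). When FP91 was left out the difference in miR-378b was 1.28 (adjusted p = 0.105), and without FP64, the highest LD50 library, it was 1.62 (adjusted p = 0.051). The call of miR-378c was lost without FP63, FP64 or any of FP91 to FP94 (0.95 to 1.34), and that of miR-378a-3p without any of these or of FP23, FP54, FP57, FP66, FP67, FP69, FP71, FP74, FP82 and FP84 (0.92 to 1.28, adjusted p up to 0.136).

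The sham lungs of 24h differed from the fentanyl lungs in more than the family. All 4 stand apart and have 642444 to 815001 reads, and they carry the mouse numbers FP91 to FP94. Their sum over the 5 epithelial miRNAs was 14865 to 19686 against 7828 to 9391 with fentanyl, with no overlap, while the muscle sums were 7508 to 8420 against 3535 to 9648 and the leukocyte sums 11093 to 17091 against 5558 to 13133. The muscle miRNAs miR-1a-3p (-5.65) and miR-206-3p (-3.96), known from cardiac and skeletal muscle, were called lower with fentanyl. The other 4 of the 6 tested muscle miRNAs had differences of 0.33 to 0.65 and were not called, and the median of the 6 was 0.33. The part of these differences in the result for the family was not tested. The lungs of FP95 and FP96 (sham, 0h) and FPB2 (LD10, 6h) stand apart as well. Their reads were 721927, 500457 and 567528 and their epithelial sums 16574, 18894 and 18703. Low reads and high epithelial sums together were thus also found at other times, but only in mice FP91 to FP96 and FPB2. The lungs FP30 and FP33, of other numbers, had 196853 and 549601 reads and epithelial sums of 6542 and 6680. Mice FP91 to FP96 with FPB2 hold all sham lungs of 24h and no fentanyl lung of that time.

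In the lungs, as in cortex and heart, dose went with mouse number. Mice numbered FP16 to FP58 hold all 16 HNLD and 15 of the LD10 lungs with 2 LD50 and no sham, mice FP59 to FP88 hold 13 LD50 and 10 sham lungs, and mice FP91 to FP96 with FPB2 hold 6 sham lungs and 1 LD10. The labels do not say what the numbers stand for. With a term for the number range in the limma fit, the LD50 differences at 24h were -0.03 for miR-378a-3p, -0.09 for miR-378c and -0.12 for miR-378b (adjusted p = 0.992 for each), and of 120 values 0 were called and 4 had an unadjusted p under 0.05. At 24h all LD50 lungs are in FP59 to FP88 and all sham lungs in FP91 to FP96. The term was therefore set by lungs of other times, and it cannot separate dose from number range at 24h. FP59 to FP88 hold no sham lungs at 24h, so the LD50 calls of 24h could not be checked within this range. Over the other times, LD50 differed from sham there by 0.30 (-0.03 to 0.64) for miR-378a-3p, 0.32 (-0.01 to 0.64) for miR-378c and -0.08 (-0.59 to 0.43) for miR-378b. Of 20 values over these times and at each of them, 0 passed, with 2 at an unadjusted p under 0.05. Within FP16 to FP58, which hold no sham lungs, LD10 differed from HNLD over all times by -0.54 (-1.12 to 0.04) for miR-378a-3p, -0.62 (-1.21 to -0.04, adjusted p = 0.629) for miR-378d and -0.26 (-0.86 to 0.34) for miR-378b, and 0 of 5 values passed, with 1 at an unadjusted p under 0.05. Without FP38 these differences were -0.30, -0.37 and -0.02, and again 0 of 5 passed, with 1 at an unadjusted p under 0.05. This term and these subsets were not run with edgeR or DESeq2.

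Over all times, the F test for dose called miR-378a-3p (adjusted p = 0.0406), miR-378d (adjusted p = 0.0360) and miR-378b (adjusted p = 0.00202) by limma, beside 34.5% of all miRNAs. In lungs miR-378b passed the filter only through sham and LD50 lungs of FP59 to FP88 and through FP38. Its calls for dose are tied to that filter and are a description. miR-378c (adjusted p = 0.0526) and the 5p arm (adjusted p = 0.225) did not pass. On leaving out 1 library at a time the call of miR-378b held for all 63, while that of miR-378a-3p was lost for 21 (adjusted p up to 0.0677) and that of miR-378d for 11 (adjusted p up to 0.064). In the lungs of 0h, 6h and 7d alone, where sham lungs are left without those that stand apart, only miR-378b was called for dose, with all libraries (adjusted p = 0.0181, 9.7% of all miRNAs called) and without those that stand apart (adjusted p = 1.21e-05, 14% called). For miR-378a-3p the adjusted p was then 0.241 and 0.196, and for miR-378d 0.185 and 0.0969. Once the libraries that stand apart are left out, all HNLD and LD10 lungs are in FP16 to FP58 and all sham lungs in FP59 to FP88. Without the lungs of FP38, whose miR-378a-3p of 70787 is heart-like, 18 of the 120 member values were called by limma. Among them was LD50 over all times for miR-378a-3p (0.51, adjusted p = 0.0167 by limma). With all libraries that comparison called 92 of 371 miRNAs, and the share in the fit without FP38 is not given here. These settings were chosen after the data had been seen. At HNLD and 6h, with FP38 kept, edgeR on the recovered reads called miR-378a-3p (2.19, adjusted p = 0.00297), miR-378c, miR-378d and the 5p arm higher, beside 11.3% of all miRNAs called, while the limma effect on miR-378a-3p without FP38 was 0.05 (-0.66 to 0.77).

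For miR-378b the HNLD and LD10 lungs lay below the sham lungs of 7d and overlapped them at 0h. At 6h the HNLD lungs had 53.9 in FP38 and 2.31 to 4.2 otherwise, and ranges are not compared for that time. As miR-378b passed the filter in lungs only through sham and LD50 lungs of FP59 to FP88 and through FP38, its lower values at HNLD and LD10 are tied to the filter. At 0h the sham lungs had 1.32, 4.07, 16.8 and 12.3, of which the lower values stand apart, HNLD had 0.732, 4.29, 4.15 and 3.22 and LD10 3.72, 3.58, 3.20 and 2.34. At 7d the sham lungs had 10.2, 11.5, 13.2 and 7.27, HNLD 4.98, 6.24, 3.16 and 4.09 and LD10 6.83, 2.33, 2.88 and 5.06. All HNLD and LD10 values of 7d lay below all sham values, as was so for 8.89% (HNLD) and 3.23% (LD10) of all miRNAs, but the differences of -1.04 and -1.19 did not pass (adjusted p = 0.695 and 0.634 by limma), while LD50 (4.43, 13.6 and 9.31) overlapped sham.

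The calls of miR-378b that follow are a description, since their direction is tied to the filter. Over all times miR-378b was lower by 0.82 at LD10 (SE 0.30, adjusted p = 0.0398 by limma, with 23.2% of all miRNAs called and 12.7% called lower), a call that was lost on leaving out any of 15 libraries (-0.99 to -0.71, adjusted p up to 0.0774). In the lungs of 0h, 6h and 7d alone the LD10 difference was -1.23 (SE 0.34, adjusted p = 0.0238, 4.85% of all miRNAs called), and without those that stand apart it was -1.56 (SE 0.25, adjusted p = 5.39e-05, 14.3% called). Without the libraries that stand apart, which leaves no sham lungs at 24h, miR-378b was the only member called, with -1.54 at 0h over the doses (SE 0.44, adjusted p = 0.0414, 2.7% of miRNAs called), -2.19 at HNLD 0h (SE 0.52, adjusted p = 0.0151, 1.62% called) and -1.88 at LD10 0h (SE 0.49, adjusted p = 0.0251, 1.62% called). The sham group of 0h then held 2 lungs. In all fits without the libraries that stand apart, the sham lungs are numbered FP59 to FP88 and the HNLD and LD10 lungs FP16 to FP58. Dose and number range cannot be told apart in these HNLD and LD10 differences, the -1.56 included. At LD50 the differences were -0.55, -0.23 and -0.28 at 0h, 6h and 7d (adjusted p = 0.995, 0.979 and 0.996).

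The level of miR-378b in lungs went with the mouse number. Without the libraries that stand apart it was 0.732 to 7.65 (median 3.18, n = 30) in FP16 to FP58 and 6.04 to 27.3 (median 10.2, n = 23) in FP59 to FP88, in which sham lungs had 6.04 to 16.8 and LD50 lungs 6.72 to 27.3. The LD50 lungs numbered under FP59 had 2.75 at 6h and 4.43 at 7d, each the lowest of its group, where the other LD50 lungs had 7.91, 8.70 and 19.9 and 13.6 and 9.31. In heart and cortex the means of miR-378b in the number ranges were close to each other, at 51.1, 52.7 and 53.1 in heart and 3.84, 3.23 and 4.10 in cortex. These values are a description, with no test, and with a term for the number range the LD10 difference over all times was -0.03 (adjusted p = 0.998).

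**Figure D5:**
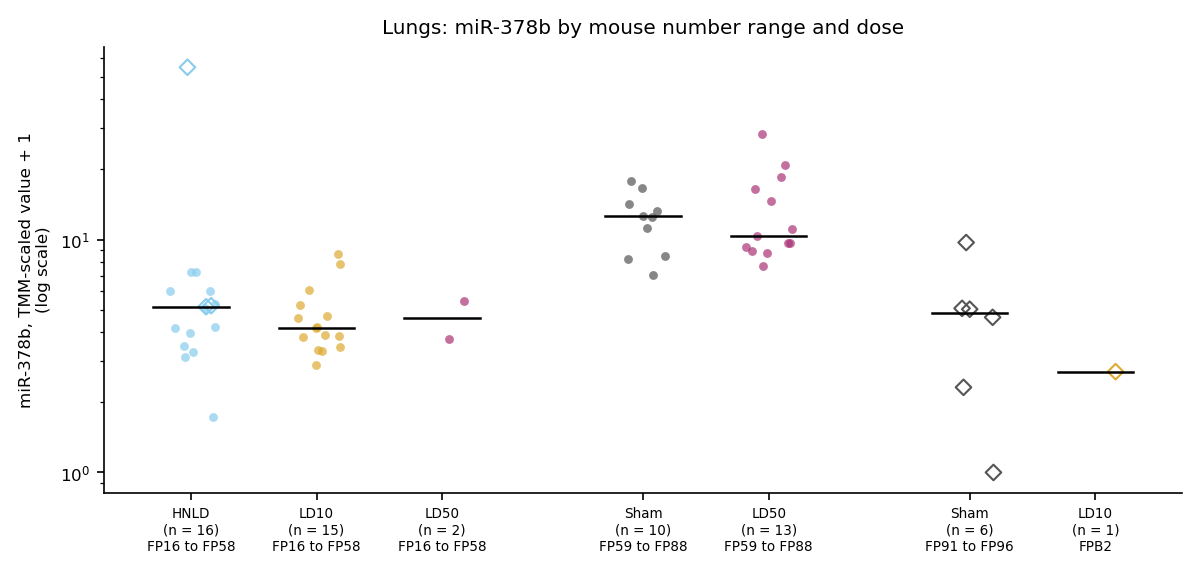
TMM-scaled value + 1 of miR-378b on a log axis in the lungs by mouse number range and dose, with 1 point per mouse, bars at the median and diamonds for libraries that stand apart. Sham and LD50 lungs of FP59 to FP88 lie together at 6.04 to 27.3, above most lungs of FP16 to FP58, and the heart-like FP38 lies at 53.9.

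Within a tissue miR-378c and miR-378d moved with miR-378a-3p from mouse to mouse, and the 5p arm did so in lungs. Across the libraries that do not stand apart, the Pearson correlation of log2(value + 1) with miR-378a-3p was 0.93 for miR-378c, 0.86 for miR-378d and 0.05 for the 5p arm in cortex (n = 60). In heart (n = 62) it was 0.87 for miR-378c, 0.66 for miR-378d, 0.33 for miR-378b and 0.14 for the 5p arm. In lungs (n = 53) it was 0.98, 0.92, 0.66 and 0.70 in the same order. The libraries share their scaling within a tissue, and these correlations are a description. Reads shared between near-identical members could also enter the correlations, and their part was not tested. The median correlation of all tested miRNAs with miR-378a-3p was -0.07, 0.03 and 0.03.

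Outside the family, the miRNAs most like miR-378a-3p by this measure differed between tissues. In cortex they were miR-128-1-5p (0.85), miR-30c-2-3p (0.82), miR-106b-3p (0.80), miR-341-3p (0.80) and miR-434-3p (0.78). In heart they were miR-101a-3p (0.60), miR-30c-2-3p (0.56), miR-101c (0.54), miR-101b-3p (0.52) and miR-582-3p (0.51). In lungs they were miR-708-3p (0.82), miR-127-5p (0.75), miR-381-3p (0.73), miR-193b-3p (0.71) and miR-708-5p (0.71). Of the muscle miRNAs, miR-133a-3p (0.67), miR-133b-3p (0.67), miR-206-3p (0.61) and miR-1a-3p (0.56) also moved with miR-378a-3p across the lungs, and their part in the spread of the family there was not tested.

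The family was set beside a list of 16 miRNAs known for roles in lipid and glucose metabolism. In cortex 16 of them were tested and in heart 13, and against sham at the 4 times and over all times limma called 0 of 80 and 0 of 65 values, with 17 and 1 at an unadjusted p under 0.05. On the recovered reads edgeR called 11 and 0 of these values and DESeq2 9 and 0, with the lung-like FP85 and FP96 among the cortex sham mice. In lungs 15 were tested, of which miR-494-3p reached 10 in 7 lungs that all stand apart and in no other, so that its direction follows from the filter and it is left out here. Of the other 14, at 24h 7 were called higher and 2 lower, beside 46.1% of all miRNAs, with a median of 0.14 against 0.20 over all miRNAs. Those with the largest changes were miR-193b-3p (0.92), which takes part in brown fat differentiation, miR-27b-3p (0.66), a regulator of adipogenesis, miR-107-3p (0.66), a regulator of insulin sensitivity, and miR-29c-3p (-0.63). At 0h 2 were called higher and 0 lower, beside 13.7% of all miRNAs, and at 6h and 7d 0 of 14 were called by limma, edgeR or DESeq2, with 1 and 2 at an unadjusted p under 0.05 in limma, 1 and 3 in edgeR and 1 and 3 in DESeq2. Over all times 3 were called higher, namely miR-107-3p (0.32), miR-27b-3p (0.28) and miR-103-3p (0.26), and 1 lower, miR-33-5p (-0.47), which is encoded within the sterol regulator gene Srebf2, beside 33.7% of all miRNAs.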

How the data were processed

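Per the labels and the methods, the authors extracted total RNA from snap-frozen tissue, prepared TruSeq Small RNA libraries, sequenced them on a NextSeq 500 and checked them with FastQC. Reads were mapped to mature mouse miRNAs of miRBase and scaled by TMM in edgeR. The methods also describe mapping to the mm9 genome as a check, and name Bowtie 1.0.0, with mismatches allowed, in that passage. The deposited tables, 1 for each tissue, hold a normalized signal and not counts. In 100% of the low values checked the deposited signal came to whole reads within 0.1 read, so reads were recovered, and 1 read stands for up to 0.4795 (cortex), 3.9615 (heart) and 4.1457 (lungs), which limits the precision of miR-378b. 0 columns of sample values were left unused.

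The main test was limma (3.58.1, R 4.3.3) with a mean trend on log2(value + 1) with a mean for each of the 16 groups and Benjamini-Hochberg adjustment over all tested miRNAs. Replicates were separate mice. The filter required 10 or more in 4 or more libraries. Arm ratios were compared by two-sided exact or 100000-draw permutation tests. The count tests, added as alternatives on the recovered reads, were edgeR (4.0.16), which called 9, 0 and 18 member values in cortex, heart and lungs, and DESeq2 (1.42.0), which called 14, 0 and 9. These counts carry no share over all miRNAs and are not a result about the family. Other alternatives were RLE scaling, no filter, pseudocounts of 0.25 and 4, library weights, fits to 1 time only, all sham groups pooled as reference, a term for mouse number ranges, fits within a range, and leaving out each library, low-depth libraries, those that stand apart, or heart FP38 and FP92. The library weights of the lungs stopped short of convergence. Fits without heart FP91, without lungs FP38, of LD10 against HNLD within FP16 to FP58 with and without FP38, of the lungs of 0h, 6h and 7d, and of arm ratios without heart FP38 and FP92 were chosen after seeing the data. Python 3.11.15 with numpy 2.4.6, pandas 2.3.3 and scipy 1.17.1 was used, figures were drawn with matplotlib 3.10.9, and the scripts were tested on simulated data.

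The members, lists and comparisons were chosen with earlier results of these data known. The text names the 5 members, in each tissue the 5 miRNAs outside the family that correlate best with miR-378a-3p, from the metabolic list at most 4 called miRNAs by size of change, and other miRNAs only where a result turns on them. Reads were not reprocessed, and the mRNA arrays of the study were not used here.

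The labels number the mice of each tissue alike, and same-numbered libraries come from the same mouse. The log2 arm ratios of a mouse, as deviations from group means, correlated at -0.111 between cortex and heart (n = 63), 0.146 between cortex and lungs (n = 62) and 0.0225 between heart and lungs (n = 63). Within a tissue each mouse gave 1 library, so that comparisons with sham have no pairs.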

Additional observations from a re-analysis of the deposited data

Results flagged for a closer look

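In 276 checks, a member or the log2 arm ratio was examined within a group of 4 libraries. Of these checks 24 flagged a library whose gap to the nearest other took up an unusually large part of the group's range, where chance gives about 1 in 20. The checks are not independent, since the same library can be flagged for several members. No member lay above all sham mice at one time and below all of them at another.

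In cortex the sham library FP96 at 0h had 59.4 for miR-378a-5p (21.6 to 25.9 in the other 3), 1491 for miR-378c (494 to 654) and 465 for miR-378d (83.5 to 104). The sham library FP85 at 6h had 7136 for miR-378a-3p (4113 to 4277), 1461 for miR-378c (575 to 629) and 436 for miR-378d (89.9 to 102). Both have lung-like profiles. FP84 at 7d had 3217 for miR-378a-3p (4058 to 4217 in the other sham mice). Among LD50 cortices, FP74 at 0h had 6172 for miR-378a-3p (3184 to 3334), 930 for miR-378c (489 to 547) and 154 for miR-378d (78.9 to 83.4), and FP69 at 0h had 28.8 for miR-378a-5p (21.1 to 21.7). FP64 at 24h had 4835 for miR-378a-3p (3182 to 3451) and 115 for miR-378d (78.9 to 84.3).

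In heart the sham library FP87 at 0h had 703 for miR-378a-5p (514 to 529), and the HNLD library FP24 at 7d had 21.8 for miR-378b (51.1 to 51.8). The LD10 library FP55 at 0h had 58230 for miR-378a-3p (48655 to 49092), 11130 for miR-378c (9521 to 9701) and 4393 for miR-378d (3711 to 3732). The LD50 library FP61 at 7d had a log2 arm ratio of 6.81 (6.90 to 6.92).

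In lungs the HNLD library FP38 at 6h, with a heart-like profile, had 70787 for miR-378a-3p (4836 to 6196), 1100 for miR-378a-5p (32.5 to 49.1), 53.9 for miR-378b (2.31 to 4.2), 16172 for miR-378c (997 to 1047) and 5280 for miR-378d (267 to 399). The values of FP38 in the heart table (2925, 25.8, 4.04, 667 and 202 in the same order) were the lowest of their group for each member.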

How the results depend on the processing

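The counts below are of member values called by a test. They show how calls depend on the setting and are not a result about the family, as shares over all miRNAs are not set beside them. In the main limma fit of the lungs 46.1% of all miRNAs were called at 24h, 33.7% over all times, 36.9% at LD50 24h and 34.5% by dose. In cortex 0 were called in the main limma fit. EdgeR called 2 at each time, 3 over all times, 3 at each dose and time and 1 by F test, DESeq2 called 3, 5 and 6 of the first kinds, and library weights gave 2 by F test. In heart the 3 calls at each dose and time became 0 with edgeR, DESeq2, no filter, library weights, only the libraries of a time, a term for mouse number ranges, without the libraries that stand apart and without FP38 and FP92. In lungs the 1 call at each time became 0 with RLE scaling, edgeR, DESeq2, no filter, the number range term or the mean of all sham groups, 3 with only the libraries of a time, 3 without lungs FP38, 6 with library weights and 1, in another comparison, without the libraries that stand apart. Over all times the 1 call became 5 with edgeR, 5 with DESeq2, 5 without lungs FP38, 8 with weights, 3 in the lungs of 0h, 6h and 7d that do not stand apart, and 0 with no filter, a pseudocount of 0.25 or the number range term. At each dose and time the 3 calls, all at LD50 24h, became 4 with edgeR and 4 with DESeq2, all at HNLD 6h, 1 with RLE scaling, 1 with no filter, 17 with weights, 8 with only the libraries of a time, 5 without lungs FP38, 2 without the libraries that stand apart, and 0 with the number range term. Of the F tests 3 were called, all for dose, which became 1 in the lungs of 0h, 6h and 7d with or without those that stand apart, 9 with edgeR, 1 with no filter, 12 with weights, 5 without lungs FP38 and 0 with the number range term.

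Of the called values 3 turned direction, LD50 at 24h in lungs under the number range term, with -0.033 for miR-378a-3p, -0.092 for miR-378c and -0.12 for miR-378b. At 24h the LD50 and sham lungs are in different number ranges, so this term cannot separate dose from range there. The cause of these shifts was not tested. The sign also changed for values called neither before nor after, in 34 of 118 values under library weights, 24 of 90 without the libraries that stand apart and 14 of 56 with the mean of all sham groups, among other settings. The adjusted p of the called lung values ran up to 0.998 over the alternatives. The arm ratio of heart over lungs was 0.13 in sham libraries alone. RLE scaling moved the median effect of all miRNAs by -0.20 to 0.03 (cortex), -0.10 to 0.09 (heart) and -0.18 to 0.05 (lungs).

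With each library left out in turn, the counts ran from 0 to 1 in cortex at each time and stayed at 0 in its other comparisons, from 0 to 5 in heart at each dose and time and 0 to 0 otherwise, and in lungs from 0 to 3 at each time, 0 to 5 over all times, 0 to 5 at each dose and time and 1 to 5 by F test. The arm ratio differences ran from 0.36 to 0.39 (cortex and heart), 0.62 to 0.66 (cortex and lungs) and 0.24 to 0.28 (heart and lungs), and that of cortex and heart was 0.23 with a pseudocount of 4. In lungs the call of miR-378c at 24h was lost without FP56, FP58, FP64 or any of FP91 to FP94 (0.84 to 0.98), that of miR-378c at LD50 24h without FP63, FP64 or any of FP91 to FP94 (0.95 to 1.34), and that of miR-378a-3p at LD50 24h without any of 16 libraries. The replicate block within mouse (0.37, 0.65 and 0.26 between tissues) changed no call of the arm ratios.

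All sham lungs of 24h stand apart, miR-378b rests on few reads in cortex and lungs, and how reads common to near-identical members were counted is not given in the sources used here. In lungs miR-378b passed the filter only through sham and LD50 lungs of FP59 to FP88 and through FP38.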
